A study of Mus musculus with 12 samples.

Results

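Transcripts of 9 regulators of G protein signaling (RGS), *Rgs2*, *Rgs3*, *Rgs4*, *Rgs5*, *Rgs10*, *Rgs12*, *Rgs16*, *Rgs17*, and *Rgs19*, were examined in bulk RNA-Seq of W-20 cells, a murine bone marrow stromal cell line. They were chosen by name, with earlier results of these data known. The 9 rows of the count matrix, of 56980 genes in all, were found by their Ensembl identifiers. The 12 libraries formed 4 groups of 3: WT cells and cells titled Y428F, each exposed for 2 hours to 50 nM parathyroid hormone (PTH) or to vehicle (PBS). Y428F names the replacement of a YAP tyrosine by phenylalanine. According to the study's methods, such lines stably express FLAG-tagged mutant YAP from a plasmid in W-20 cells and were selected as puromycin-resistant clones. The study's text calls the mutant cells compared by RNA-Seq both Y428F and S381A/Y428F and describes a line of each name, and the labels give only Y428F, so a second change, S381A, may be present. The number of clones is not given in the sources used here, and the labels give the other cells only as WT, without saying whether they carried a control plasmid. The genotype entry of the Y428F libraries reads WT, although their titles read Y428F. Thus, the mutation, the plasmid, the selection, and the clone cannot be told apart in any comparison of the 2 lines. The labels do not state that the 3 libraries of a group came from separate cultures, so the p-values measure the spread between these libraries, which may be technical. Library totals ranged from 17513924 to 19018693 expected counts in WT vehicle, from 17127897 to 17750085 in WT PTH, from 17670681 to 19057319 in Y428F vehicle, and from 17731876 to 18064022 in Y428F PTH.

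A G protein–coupled receptor passes its signal to the Gα subunit of a G protein, which is active while it holds GTP. RGS proteins bind the active Gα subunit and speed its hydrolysis of GTP, so that the signal ends sooner, and most of them act on the Gi and Gq families rather than on Gs. The PTH receptor couples to Gs, which activates adenylyl cyclase, and to Gq, which activates phospholipase C-β, and *Rgs2* is known as an early PTH- and cAMP-induced gene of osteoblasts. *Rgs2*, *Rgs3*, *Rgs4*, *Rgs5*, and *Rgs16* belong to the same subfamily of mostly small proteins, *Rgs10* and *Rgs12* to another, and *Rgs17* and *Rgs19* to yet another.

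*Rgs2* (chromosome 1, 143875076 to 143879899), *Rgs4* (chromosome 1, 169569046 to 169575218), *Rgs5* (chromosome 1, 169483036 to 169524887), and *Rgs16* (chromosome 1, 153616091 to 153621228) lie on the same chromosome of GRCm39. *Rgs5* and *Rgs4* are neighbors that face each other, with 44158 bases between their 3′ ends. *Rgs3* lies on chromosome 4 (62478084 to 62622238), *Rgs12* on chromosome 5 (35106715 to 35196988), *Rgs10* on chromosome 7 (127975345 to 128020482), *Rgs17* on chromosome 10 (5775663 to 5872407), and *Rgs19* on chromosome 2 (181330212 to 181335997). The annotation gave 27 transcripts from 25 starts for *Rgs3*, 22 from 19 for *Rgs12*, and 23 from 20 for *Rgs19*, but only 3 from 2 for *Rgs4*, and the counts summed all transcripts of a gene. The 250 bases upstream of the canonical start were searched on both strands for the cAMP response element (CRE) TGACGTCA, its 5-base part TGACG, and the TEAD site GGAATG, the last because YAP acts through TEAD factors. None of the 9 promoters held the full CRE or the TEAD site, which were found in 1.69% and 12.1% of 21770 promoters of the same length. TGACG, which also lies within the full CRE, was found in 3 of the 9 (*Rgs2*, *Rgs4*, and *Rgs5*) and in 18% of all promoters. The promoters of *Rgs2* (chr1:143879900-143880149, minus strand), *Rgs4* (chr1:169575219-169575468, minus strand), and *Rgs3* (chr4:62537507-62537756, plus strand) are shown 5′ to 3′, the first because it is the PTH-induced member in osteoblasts and the other 2 because they differed most between the lines among the well-detected members. Capitals mark TGACG on either strand, with matches beginning 173 and 55 bases before the start of *Rgs2* and 229 and 134 bases before that of *Rgs4*. A match describes the letters only and is not evidence of binding.
Rgs2: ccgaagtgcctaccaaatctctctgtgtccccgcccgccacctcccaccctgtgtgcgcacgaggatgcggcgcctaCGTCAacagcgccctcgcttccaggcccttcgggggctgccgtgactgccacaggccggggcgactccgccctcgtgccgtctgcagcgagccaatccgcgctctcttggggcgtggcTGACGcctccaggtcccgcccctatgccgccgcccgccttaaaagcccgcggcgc
Rgs4: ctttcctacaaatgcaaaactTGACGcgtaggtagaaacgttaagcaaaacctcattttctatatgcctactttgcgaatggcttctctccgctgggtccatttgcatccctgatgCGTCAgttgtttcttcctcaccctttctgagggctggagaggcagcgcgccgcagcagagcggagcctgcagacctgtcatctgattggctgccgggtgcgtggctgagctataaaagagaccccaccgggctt
Rgs3: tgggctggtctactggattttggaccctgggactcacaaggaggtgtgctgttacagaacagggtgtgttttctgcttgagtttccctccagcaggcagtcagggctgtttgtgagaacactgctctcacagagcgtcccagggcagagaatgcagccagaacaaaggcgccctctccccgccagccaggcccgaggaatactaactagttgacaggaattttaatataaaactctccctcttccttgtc

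Of the 9 genes, 5 had more than 3 counts in every library (*Rgs3*, *Rgs4*, *Rgs10*, *Rgs12*, and *Rgs19*), and the other 4 had no library above 10 counts. *Rgs3*, *Rgs10*, *Rgs12*, and *Rgs19* held between 91% and 96.3% of the counts of all 21 *Rgs* genes in a library. Levels are given as CPM, the counts scaled by library size and TMM scaling factors, and between genes only per kilobase of merged exons. On that scale the level in WT vehicle cells was highest for *Rgs19* at 14.0 ± 1.37 CPM per kb (SD, n = 3), followed by *Rgs10* at 9.97 ± 0.434, *Rgs12* at 5.87 ± 0.6002, *Rgs3* at 3.69 ± 0.0406, and *Rgs4* at 0.372 ± 0.0929. The ranges of these neighbors did not overlap, but with the longest transcript as the length those of *Rgs12* (9.06 ± 0.927) and *Rgs3* (8.53 ± 0.0939) did. In Y428F vehicle cells the order was *Rgs19* (17.98 ± 0.591 CPM per kb), *Rgs10* (10.2 ± 0.250), *Rgs12* (5.06 ± 0.114), *Rgs4* (2.18 ± 0.274), and *Rgs3* (1.87 ± 0.127), and the ranges of the last 2 overlapped. With the longest transcript *Rgs3* stood above *Rgs4* there, at 4.33 against 2.30 CPM per kb, so the order of these 2 in Y428F cells depended on the length used.

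**Figure D1:**
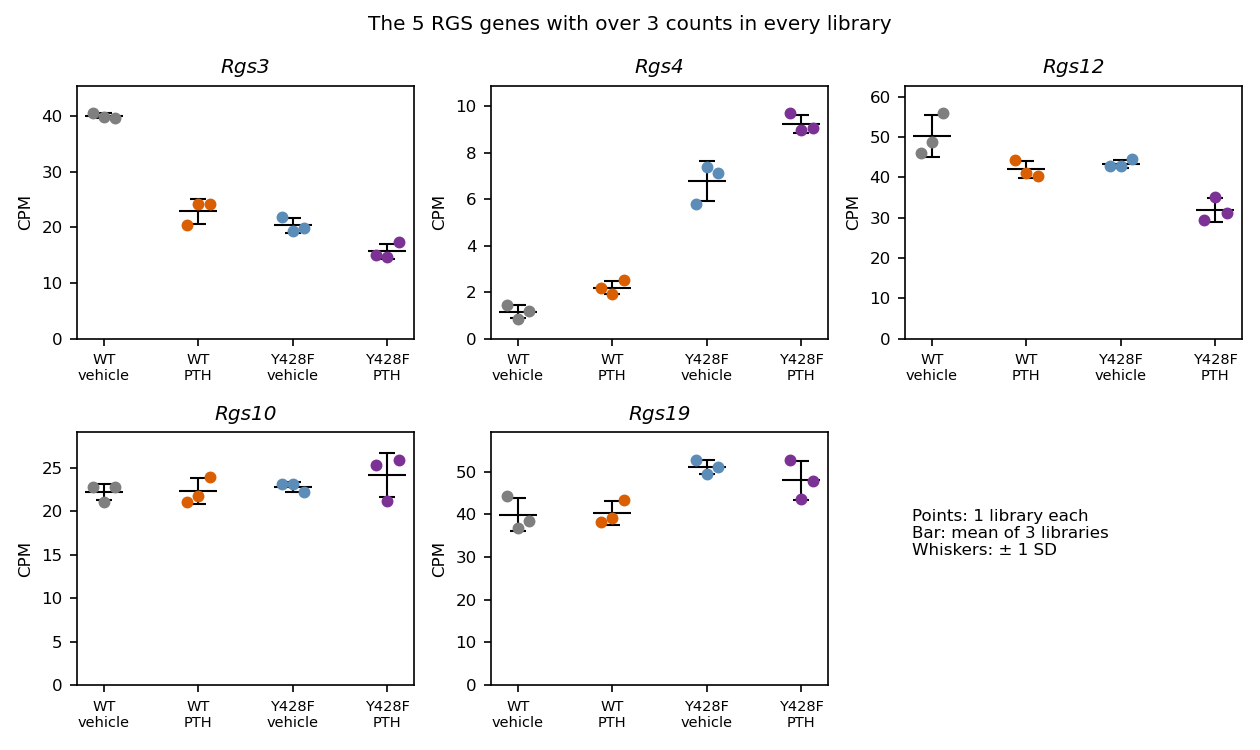
CPM (y axis, linear, from 0) of the 5 RGS genes with more than 3 counts in every library, by group (x axis). Each point is 1 library, the bar is the mean of 3 libraries, and the whiskers are ± 1 SD. *Rgs3* was highest in WT vehicle and *Rgs4* in Y428F PTH, and in both genes the PTH libraries of each line stood apart from its vehicle libraries.

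The first comparison asked how WT cells responded to PTH. *Rgs3*, a GTPase-activating protein for Gi and Gq subunits, was lower with PTH, and it was the only member called. The vehicle libraries held 40.6, 39.8, and 39.8 CPM and the PTH libraries 20.3, 24.2, and 24.2. The groups did not overlap, and the highest PTH library was well below the lowest vehicle library. The means were 40.1 ± 0.441 and 22.9 ± 2.24 CPM (SD, n = 3), and the log2 fold change was -0.80 (SE 0.0854, 95% interval -0.98 to -0.61, adjusted p = 4.975e-05, by the quasi-likelihood test of edgeR after Benjamini-Hochberg adjustment, as for each adjusted p below). Among the 6 members tested (*Rgs2*, *Rgs5*, and *Rgs17* had too few counts), 0 were called higher and 1 lower, where 6.88% and 4.91% of the 15583 genes tested were. The background itself depended on single libraries, with 1072 genes called higher and 765 lower in the 6 libraries, but 705 and 340 without vehicle library 3, 613 and 292 without PTH library 1, and 665 and 395 without PTH library 2, and 385 called lower without vehicle library 2. The median log2 fold change of the 6 was 0.017, against -0.015 over all genes tested.

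*Rgs4*, a regulator of Gi and Gq signaling that is abundant in brain and heart, held 1.43, 0.853, and 1.18 CPM with vehicle and 2.18, 1.91, and 2.50 CPM with PTH in WT cells, from 64 counts against 111 in all. All PTH libraries were above all vehicle libraries, but the difference missed the threshold (log2 fold change 0.93, SE 0.299, 95% interval 0.28 to 1.57, adjusted p = 0.0624). When the same comparison was fitted on all 12 libraries the adjusted p was 0.0081 and the gene was called. *Rgs12*, a large scaffold protein with several domains besides its RGS domain, held 46.0, 48.9, and 56.0 CPM with vehicle and 44.4, 41.2, and 40.4 with PTH. Here too the groups did not overlap and the threshold was missed (log2 fold change -0.25, SE 0.0852, 95% interval -0.44 to -0.069, adjusted p = 0.075), whereas the fit on 12 libraries gave 0.0352. Without WT vehicle library 1 both were called (adjusted p = 0.0472 for *Rgs4* and 0.0278 for *Rgs12*). With 1 library left out, however, the adjusted p reached 0.181 for *Rgs4* and 0.294 for *Rgs12*. The log2 fold change then ranged from 0.76 to 1.13 and from -0.30 to -0.16. Each gene stayed uncalled in 11 of 15 alternatives.

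*Rgs10*, a small regulator of Gi signaling, held 22.8, 21.1, and 22.8 CPM with vehicle and 21.1, 21.8, and 24.0 with PTH in WT cells. *Rgs19*, which acts on Gi and the related Gz, held 44.2, 36.8, and 38.5 CPM with vehicle and 38.3, 39.1, and 43.4 with PTH. In both genes the groups overlapped, and neither was called. The 95% interval of the log2 fold change was -0.17 to 0.19 for *Rgs10* (adjusted p = 0.961) and -0.17 to 0.22 for *Rgs19* (adjusted p = 0.922). *Tcea2*, which overlaps *Rgs19* on the opposite strand, had a mean of 22.8 counts per library, and the labels do not say whether the counting used strand.

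The response of Y428F cells to PTH was examined next. *Rgs3* and *Rgs12* fell and no member was called higher. *Rgs3* held 21.9, 19.3, and 19.9 CPM with vehicle and 15.0, 14.7, and 17.3 with PTH. The groups did not overlap (log2 fold change -0.38, SE 0.0932, 95% interval -0.57 to -0.18, adjusted p = 0.0103), but without Y428F vehicle library 1 the adjusted p was 0.0704. *Rgs12* held 42.8, 42.7, and 44.4 CPM with vehicle and 29.5, 35.2, and 31.1 with PTH. All 3 PTH libraries were below the vehicle libraries (log2 fold change -0.44, SE 0.0816, 95% interval -0.61 to -0.27, adjusted p = 0.00101), and the call was kept when each library was left out in turn. Among the 7 members tested, 0 were called higher and 2 lower, where 6.61% and 5.78% of the 17691 genes tested were. Their median log2 fold change was -0.089, against -0.0067 over all genes tested.

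*Rgs4* in Y428F cells held 5.81, 7.38, and 7.15 CPM with vehicle and 9.71, 8.98, and 9.09 with PTH. The groups did not overlap, and the difference was just outside the threshold (log2 fold change 0.45, SE 0.147, 95% interval 0.14 to 0.75, adjusted p = 0.0511). With 1 library left out its adjusted p ranged from 0.0358 to 0.217. It was under 0.05 without WT vehicle library 1 or 2 or WT PTH library 2 or 3, and highest without Y428F vehicle library 1 (log2 fold change 0.35). *Rgs10* held 23.2, 23.1, and 22.2 CPM with vehicle and 25.3, 21.2, and 25.9 with PTH, and *Rgs19* 52.8, 49.4, and 50.9 with vehicle and 52.7, 43.5, and 47.8 with PTH. In both the groups overlapped and the gene was not called (adjusted p = 0.642 and 0.569).

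**Figure D2:**
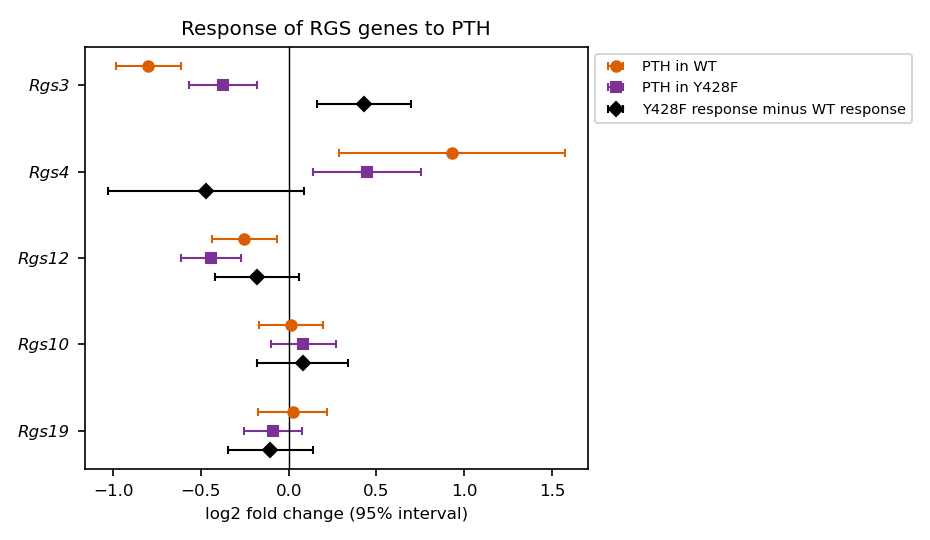
Log2 fold change with PTH (x axis, with its 95% interval as whiskers) of 5 RGS genes (y axis) in WT cells, in Y428F cells, and the Y428F response minus the WT response. The *Rgs3* estimates were -0.80 in WT and -0.38 in Y428F cells, and those of *Rgs10* and *Rgs19* lay near 0 in both.

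Whether the 2 lines differed in their response to PTH was tested directly, as the Y428F response minus the WT response. No member was called, where 0.17% of the 17691 genes tested were called higher and 0.243% lower. *Rgs3* had the only 95% interval among the members tested that left out 0, with a difference of 0.43 on the log2 scale (SE 0.128, 95% interval 0.16 to 0.70, adjusted p = 0.275), the decrease being estimated as smaller in Y428F cells. Its adjusted p ranged from 0.117 to 0.636 over the alternatives. The 95% intervals of the other well-detected members were -1.03 to 0.086 for *Rgs4*, -0.42 to 0.057 for *Rgs12*, -0.18 to 0.34 for *Rgs10*, and -0.34 to 0.14 for *Rgs19*. These intervals include 0 and also differences of 0.3 in size, so similar responses were not shown.

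The lines were then compared with each other, first with vehicle. *Rgs4* and *Rgs19* were higher in Y428F cells, and *Rgs3* and *Rgs12* were lower. *Rgs4* was 5.82-fold higher, with 6.78 ± 0.852 CPM in Y428F against 1.15 ± 0.288 in WT cells (SD, n = 3), and the lowest Y428F library, at 5.81 CPM, was above the highest WT library, at 1.43 (log2 fold change 2.54, SE 0.191, 95% interval 2.14 to 2.94, adjusted p = 7.746e-10). *Rgs3* was lower in all 3 Y428F libraries, with 20.4 ± 1.38 against 40.1 ± 0.441 CPM (log2 fold change -0.98, SE 0.0873, adjusted p = 9.61e-09). The vehicle libraries of each line stand both in this comparison and in that line's response to PTH, and the *Rgs3* level of the Y428F vehicle libraries (19.3 to 21.9 CPM) overlapped that of the WT PTH libraries (20.3 to 24.2 CPM).

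The other 2 differences were smaller. *Rgs19* reached 51.1 ± 1.68 CPM in Y428F vehicle against 39.8 ± 3.88 in WT vehicle cells, with no overlap (log2 fold change 0.36, SE 0.0810, adjusted p = 0.00105). *Rgs12* had 43.3 ± 0.977 against 50.3 ± 5.14 CPM, also without overlap (log2 fold change -0.22, SE 0.0792, adjusted p = 0.0316). This last call was lost without WT vehicle library 3 (log2 fold change -0.13, adjusted p = 0.228), without Y428F vehicle library 1 (adjusted p = 0.0741) or 2 (0.0842), and with library totals in place of TMM (0.0963). *Rgs10* was not called (22.8 ± 0.558 against 22.2 ± 0.967 CPM, adjusted p = 0.766). Of the 7 members tested, 2 were called higher and 2 lower, where 22.4% and 22.7% of the 17691 genes tested were, so calls between the lines were common among all genes. The median log2 fold change of the 7 was 0.12, against 0.012 over all genes tested.

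With PTH the same 4 members were called in the same directions. *Rgs4* was 4.20-fold higher in Y428F cells, with 9.26 ± 0.391 against 2.20 ± 0.299 CPM (log2 fold change 2.07, SE 0.171, adjusted p = 3.042e-09). *Rgs3* held 15.7 ± 1.41 against 22.9 ± 2.24 CPM (log2 fold change -0.55, SE 0.0931, adjusted p = 5.162e-05), and *Rgs12* 31.9 ± 2.96 against 42.0 ± 2.15 CPM (log2 fold change -0.40, SE 0.0823, adjusted p = 0.0004336). The groups of these 3 genes did not overlap. *Rgs19* held 48.0 ± 4.60 against 40.3 ± 2.77 CPM (log2 fold change 0.25, SE 0.0819, adjusted p = 0.0153), and its groups were separated only by the gap between 43.4 and 43.5 CPM. The *Rgs19* call was lost without WT PTH library 1 (adjusted p = 0.0629) or Y428F PTH library 1 (0.132). *Rgs10* was not called (24.2 ± 2.57 against 22.3 ± 1.51 CPM, adjusted p = 0.306). Again 2 of 7 members were called higher and 2 lower, where 22.8% and 23% of all genes tested were.

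**Figure D3:**
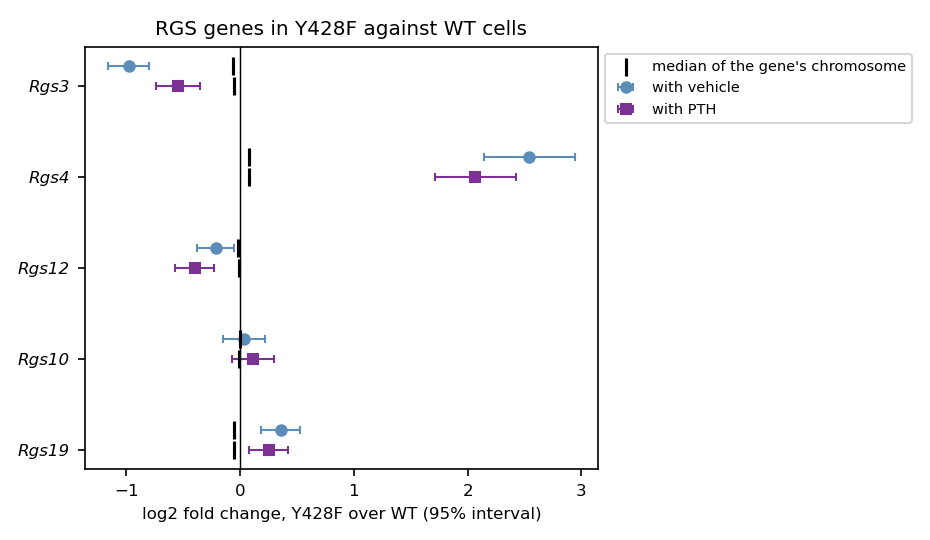
Log2 fold change of Y428F over WT cells (x axis, with its 95% interval as whiskers) of 5 RGS genes (y axis), with vehicle and with PTH. Black ticks give the median log2 fold change of the genes on the same chromosome. *Rgs4* lay at 2.54 and 2.07, against a chromosome median of 0.077 and 0.081.

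The differences between the lines were also set beside those of the other genes on each gene's chromosome. With vehicle, the median log2 fold change was 0.077 over 579 genes of chromosome 1 (*Rgs4*), -0.062 over 650 genes of chromosome 4 (*Rgs3*), -0.021 over 675 genes of chromosome 5 (*Rgs12*), and -0.057 over 841 genes of chromosome 2 (*Rgs19*). These medians were smaller in size than the differences of the 4 members. Chromosome 10, which holds *Rgs17*, had the highest median of the 6 chromosomes, at 0.25.

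*Rgs17* had 0 counts in all 12 libraries, which allows a level of up to between 0.152 and 0.184 CPM in a library, for counting error only. *Rgs5*, a marker of pericytes, had 0 counts in the 6 WT libraries, 4, 1, and 0 counts in Y428F vehicle, and 1, 1, and 2 in Y428F PTH. *Rgs2* had 0 counts in all WT vehicle libraries, 0, 0, and 1 with PTH, then 1, 2, and 2 in Y428F vehicle and 1, 3, and 0 in Y428F PTH. No PTH library of either line had more than 3 counts of *Rgs2*, a level of at most 0.184 CPM, and a response within that level was not detectable at this depth. *Rgs16*, which regulates Gi and Gq signaling, had 0, 7, and 0 counts in WT vehicle and 10, 4, and 7 in WT PTH, followed by 1, 4, and 3 in Y428F vehicle and 3, 5, and 0 in Y428F PTH. The groups overlapped in both lines, and *Rgs16* was not called in any of the 5 comparisons (adjusted p = 0.352 for PTH in WT cells). Without WT vehicle library 2, which held all 7 vehicle counts, its adjusted p in WT cells was 0.0339. That fit left only vehicle libraries at 0 counts, so the lower value follows from the library chosen. With 1 library left out the adjusted p reached 0.602.

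**Figure D4:**
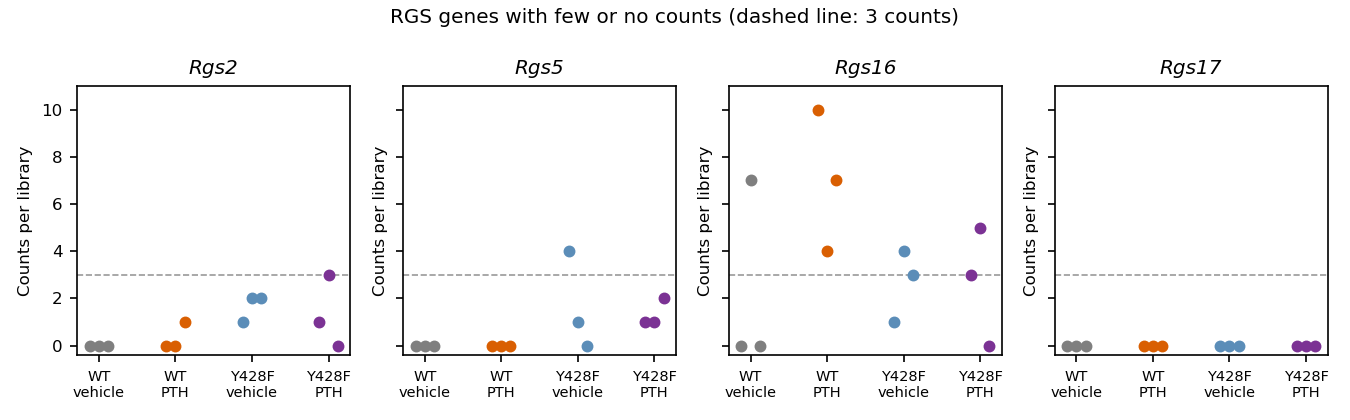
Counts per library (y axis, linear) of the 4 RGS genes with no library above 10 counts, by group (x axis). Each point is 1 library and the dashed line marks 3 counts. *Rgs17* was at 0 throughout, and *Rgs16* reached 10 counts in 1 WT PTH library.

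The genes that work with or beside the 9 members were taken from fixed lists. Among the other 12 *Rgs* genes, 8 had no library above 3 counts and 4 could be tested (*Rgs9*, *Rgs11*, *Rgs14*, and *Rgs20*). None of these was called with PTH in either line, where 6.88% of all genes were higher and 4.91% lower in WT and 6.61% and 5.78% in Y428F cells. Between the lines 1 was called lower, where 22.7% of all genes were with vehicle and 23% with PTH. This was *Rgs11*, at 0.581 ± 0.189 CPM in Y428F against 2.34 ± 0.748 in WT vehicle cells (log2 fold change -1.99, adjusted p = 0.0001856) and at -2.00 on the log2 scale with PTH (adjusted p = 0.000687). *Rgs11* overlaps *Fam234a*, a gene on the opposite strand with a mean of 3256 counts, so its low counts are uncertain. *Gnb5*, the Gβ subunit that binds *Rgs11* and its relatives, was also lower in Y428F cells (log2 fold change -0.88 with vehicle, adjusted p = 5.52e-08, and -0.65 with PTH, adjusted p = 5.02e-06). *Rgs9bp*, which anchors such RGS proteins to membranes, was lower with PTH in both lines, from 2.04 ± 0.553 to 0.852 ± 0.233 CPM in WT (log2 fold change -1.25, adjusted p = 0.0314) and from 1.35 ± 0.394 to 0.556 ± 0.152 CPM in Y428F cells (log2 fold change -1.27, adjusted p = 0.0254). These were 113 against 43 counts in all in WT cells. The call was lost in WT cells without vehicle library 3 or PTH library 1 or 2 (adjusted p from 0.107 to 0.159), and in Y428F cells without vehicle library 1 or PTH library 1 or 3 (0.0861 to 0.147).

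Of 13 Gα subunits, 11 were tested in WT cells and 13 in the fit of 12 libraries, and 1 was called higher and 0 lower with PTH in each line, where 6.88% and 4.91% of all genes were in WT and 6.61% and 5.78% in Y428F cells. *Gnai3*, a Gi subunit and thus a substrate of many RGS proteins, rose from 160 ± 5.23 to 200.1 ± 3.88 CPM in WT (log2 fold change 0.33, adjusted p = 0.00249) and from 172 ± 0.985 to 210.5 ± 6.21 CPM in Y428F cells (0.29, adjusted p = 0.000564). Between the lines with vehicle, 2 of 13 Gα subunits were higher and 5 lower in Y428F cells, where 22.4% and 22.7% of all genes tested were. The 4 with the smallest adjusted p were lower, namely *Gnai2* (log2 fold change -0.41, adjusted p = 8.782e-07), *Gna12* (-0.45, adjusted p = 1.83e-06), *Gnas*, the Gs subunit (-0.38, adjusted p = 3.073e-06), and *Gnao1* (-0.50, adjusted p = 2.503e-05). With PTH 3 were higher and 6 lower, where 22.8% and 23% of all genes were, led by *Gnai2* (-0.44), *Gna12* (-0.49), *Gnao1* (-0.63), and *Gna11*, a Gq family subunit that was higher (0.41, adjusted p = 4.33e-06).

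Of 13 effectors, the phospholipase C-β and adenylyl cyclase genes, 8 were tested in WT cells and 11 in the fit of 12 libraries. With PTH 1 was called lower in each line, where 4.91% of all genes were in WT and 5.78% in Y428F cells. This was *Adcy6*, which went from 275 ± 18.99 to 234 ± 13.3 CPM in WT (log2 fold change -0.23, adjusted p = 0.0435) and from 183 ± 1.85 to 152 ± 8.87 CPM in Y428F cells (-0.26, adjusted p = 0.00773). Between the lines 2 of 11 were higher and 4 lower in Y428F cells with vehicle (22.4% and 22.7% of all genes), and 2 higher and 6 lower with PTH (22.8% and 23% of all genes). *Adcy7* was higher (log2 fold change 1.31 with vehicle and 1.07 with PTH), whereas *Adcy6* (-0.59 and -0.62), *Plcb4* (-0.63 and -0.85), and *Plcb1* (-0.50 and -0.62) were lower, with adjusted p of at most 1.599e-05. *Adcy7* shares its locus with *Brd7* on the opposite strand, which had a mean of 1501 counts.

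Among 15 other proteins with an RGS homology domain, 12 were tested in WT cells and 13 in the fit of 12 libraries. With PTH, *Axin1*, a scaffold of the β-catenin destruction complex, was called higher in both lines (log2 fold change 0.23 in each, adjusted p = 0.0275 in WT and 0.00717 in Y428F cells), and no other member of this list was, where 6.88% and 6.61% of all genes were called higher. Between the lines 3 of 13 were higher and 4 lower in Y428F cells with vehicle (22.4% and 22.7% of all genes), led by the sorting nexins *Snx13* (-0.32), *Snx25* (-0.31), and *Snx14* (-0.38), which were lower, and the receptor kinase *Grk6* (0.29), which was higher, and 2 were higher and 4 lower with PTH (22.8% and 23% of all genes). Of 5 exchange factors and GDI proteins, 4 were tested in WT cells and 5 in the fit of 12 libraries. With PTH 1 was called lower in WT cells and 0 in Y428F cells (4.91% and 5.78% of all genes). Between the lines 1 was higher and 1 lower in Y428F cells with vehicle (22.4% and 22.7% of all genes), and 0 and 1 with PTH (22.8% and 23%). *Gpsm1*, which holds Gi in its GDP-bound form, was lower with PTH in WT cells (log2 fold change -0.27, adjusted p = 0.028). It was also lower in Y428F cells with vehicle (-0.36, adjusted p = 0.000129) and with PTH (-0.19, adjusted p = 0.0268). *Gpsm1* overlaps *Dnlz* on the opposite strand, which had a mean of 895 counts. *Snx25* likewise overlaps *Cfap97* on the opposite strand, with a mean of 562.8 counts. *Ric8b*, an exchange factor, was higher in Y428F cells with vehicle (0.24, adjusted p = 0.0441). In WT cells the calls of *Axin1* and *Gpsm1* were lost without vehicle library 2 or 3 or PTH library 1 or 2 (adjusted p from 0.0501 to 0.106 and from 0.0952 to 0.115), and that of *Adcy6* when any library other than vehicle library 1 was left out (0.083 to 0.176). The call of *Ric8b* was lost without WT vehicle library 1 or 2, Y428F vehicle library 1 or 3, or Y428F PTH library 3 (0.0576 to 0.152). The call of *Gpsm1* between the lines with PTH was lost without WT PTH library 1 or 3 or Y428F PTH library 3 (0.0566 to 0.0823). An alternative that kept every library also ended it, with an adjusted p of 0.1505. No gene of these lists (other *Rgs* genes, partners, Gα subunits, effectors, homology proteins, and exchange factors) was called in the difference between the responses. *Pth1r*, the PTH receptor, had between 0 and 10 counts in a library and was not called in any comparison.

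The labelled cell type was set against marker genes. Of 10 stromal markers 9 were detected, led by *Col1a2*, whereas *Thy1* was at 0 in all libraries. Their summed level was 21840 to 25260 CPM in WT vehicle, 21500 to 24650 in WT PTH, 15600 to 16730 in Y428F vehicle, and 12220 to 14890 in Y428F PTH. With PTH, 1 of the 9 was called higher and 1 lower in WT cells (6.88% and 4.91% of all genes), and 1 and 2 in Y428F cells (6.61% and 5.78%). *Pdgfra* was lower (log2 fold change -0.59, adjusted p = 0.00146, and -0.73, adjusted p = 7.166e-05) and *Cd44* higher in both lines (0.34, adjusted p = 0.00329, and 0.31, adjusted p = 0.000865). *Col1a1* was also lower in Y428F cells (-0.33, adjusted p = 0.0218, up to 0.124 with 1 library left out). Of the 9, 7 were called lower in Y428F cells in both comparisons of the lines, where 22.7% of all genes were with vehicle and 23% with PTH. Those with the smallest adjusted p with vehicle were *Vcam1* (log2 fold change -1.76, adjusted p = 3.881e-15), *Pdgfra* (-1.59, adjusted p = 2.218e-11), and *Pdgfrb* (-1.51, adjusted p = 2.566e-11). The call of *Sparc* with vehicle was lost without WT vehicle library 1 or 3 or Y428F vehicle library 2 (adjusted p up to 0.118). An alternative that kept every library gave it an adjusted p of 0.154. By contrast, *Ly6a* (log2 fold change 1.23 with vehicle and 1.10 with PTH, adjusted p = 2.375e-12 and 1.383e-11) and *Cd44* (0.19 and 0.17, adjusted p = 0.00917 and 0.0193) were higher, the call of *Cd44* with PTH being lost without WT PTH library 3 or Y428F PTH library 2 (adjusted p up to 0.103). The 6 osteoblast markers summed to between 762.8 and 949.4 CPM in WT and between 555.6 and 599.3 in Y428F libraries, led by *Spp1* and then *Runx2*, while *Bglap* had at most 2 counts. The 5 adipocyte markers summed to between 101.5 and 108.1 CPM in WT vehicle and between 108.5 and 117 in WT PTH. In Y428F cells the sums were between 54.6 and 57.6 CPM with vehicle and between 80.6 and 83.7 with PTH. *Adipoq* was at 0 in all libraries. *Cebpa* (log2 fold change -2.24 with vehicle) and *Fabp4* (-2.03) were lower in Y428F cells, but *Pparg* was higher (0.33, adjusted p = 0.0008354, and 0.52 with PTH, adjusted p = 2.853e-06). In the PTH responses, 1 of the 4 tested was called higher in each line and 0 lower, where 6.88% and 6.61% of all genes were higher. This was *Pparg* (log2 fold change 0.52, adjusted p = 0.001355 in WT, and 0.71, adjusted p = 9.622e-07 in Y428F cells). In bulk RNA, fewer cells of a type and less RNA per cell cannot be told apart.

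Markers of other cell types moved with the groups as well. The 8 mural markers summed to between 332 and 357 CPM in WT vehicle and between 718 and 750 in WT PTH, and to between 317 and 335.5 in Y428F vehicle and between 479 and 515 in Y428F PTH. *Acta2* was their most abundant gene with PTH and rose in both lines (log2 fold change 2.19 and 1.17), by less in Y428F cells (difference in response -1.02, adjusted p = 7.338e-05). *Mcam* was also higher with PTH (0.20 and 0.21), whereas *Notch3* fell in both lines (-0.41, adjusted p = 0.0179, and -0.60, adjusted p = 0.00105), so the list did not move one way. In WT cells the call of *Mcam* was lost without vehicle library 2 or 3 or PTH library 1 or 2 (adjusted p up to 0.121), and that of *Notch3* without vehicle library 2 or 3 or PTH library 1 or 3 (up to 0.0869). Between the lines, 2 of 6 tested were higher and 2 lower in Y428F cells with vehicle (22.4% and 22.7% of all genes), and 1 and 3 with PTH (22.8% and 23%). *Notch3* was lower (-1.26 with vehicle and -1.44 with PTH) and *Des* higher (0.97 and 0.79). *Acta2* was higher with vehicle (0.28, adjusted p = 0.00734, up to 0.0679 with 1 library left out) but lower with PTH (-0.75, adjusted p = 7.159e-08). Of the others, the pericyte genes *Kcnj8* and *Abcc9* were at 0 in all libraries, and *Cspg4* had at most 12 counts. The 5 endothelial markers summed to at most 1.77 CPM in WT libraries, to between 7.94 and 9.94 in Y428F vehicle, and to between 6.12 and 6.78 in Y428F PTH. *Cdh5* was their most abundant gene in all libraries but WT PTH library 3, where it was *Tek*, and it was the only 1 of the 4 tested that was called higher in Y428F cells. The 6 hematopoietic markers summed to at most 1.92 CPM in WT libraries, to between 3.03 and 3.67 in Y428F vehicle, and to between 3.93 and 4.30 in Y428F PTH, with *Cd3e* at 0. *Ptprc* was their most abundant gene in all libraries but WT PTH library 3, where it was *Cd68*, and it was the only 1 of the 3 tested that was called. In both lists these single calls stand against 22.4% of all genes called higher with vehicle and 22.8% with PTH. *Rgs4*, like *Cdh5* and *Ptprc*, was higher in Y428F than in WT cells. From Y428F vehicle to Y428F PTH, the range of the hematopoietic sum was higher and that of the endothelial sum lower. However, no endothelial or hematopoietic marker tested was called with PTH in either line. Between the Y428F groups, *Ptprc* stood at 0.31 on the log2 scale (adjusted p = 0.458) and *Cdh5* at -0.45 (adjusted p = 0.0909). The part of other cells in the *Rgs4* level was not tested.

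The genes whose pattern over the 12 libraries was most like that of *Rgs4*, among 11193 with a mean of at least 2 CPM, were *Tdg* (Pearson r = 0.995), *Nop56* (0.994), and *Ptges3* (0.994). These values include the differences between the groups, and within groups r was 0.758, 0.796, and 0.782. For *Rgs3* they were *Mylip* (0.973), *Fastk* (0.969), and *Klhdc3* (0.969), with 0.272, 0.375, and 0.755 within groups, and for *Rgs12* *Ppp1r9b* (0.977), *Samd14* (0.975), and *Naa80* (0.97), with 0.791, 0.834, and 0.864. The libraries share their depth and scaling factors across all genes, and the search for *Rgs3* and *Rgs12* was added after their values were seen. *Rgs2* and *Rgs16* had too few counts for such a search to be read.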

How the data were processed

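Messenger RNA of W-20 cells was sequenced in 12 libraries, grouped by their titles. The authors mapped reads with STAR 2.7.10b to GRCm39 with GENCODE vM31 and deposited RSEM expected counts per gene, not scaled for library size. The counts were rounded, and edgeR 4.0.16 in R 4.3.3 was run on them (TMM, quasi-likelihood test, Benjamini-Hochberg over all genes tested), for genes whose counts summed to 10 or more. The PTH response of WT cells was fitted on the 6 WT libraries (15583 genes) and the other 4 comparisons on all 12 (17691 genes). A gene was called at an adjusted p under 0.05. CPM used TMM factors over 12 libraries. A floor of 3 counts was used for undetected genes. Any 2 replicates differed by more than sampling noise (chi-square per degree of freedom 2.87 to 14.2 over 12 pairs).

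Positions, lengths, and promoters came from GRCm39 with GENCODE vM39, to which 56236 of 56980 identifiers matched. Besides the 9 members, the called genes named from the signaling lists were at most 4 per comparison, those with the smallest adjusted p. From the marker lists, further genes were named outside this rule. The members and lists were chosen with earlier results of these data known, so their calls are not independent support. Alternatives were DESeq2 1.42.0, its size factors, library totals, other filters and limits, the replicate number as a block, the fit of 12 libraries, the longest transcript as the length, and each library left out. Protein sequences were not analysed here.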

Additional observations from a re-analysis of the deposited data

How the results depend on the processing

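Of 610 values of the 7 RGS genes tested (not *Rgs5* or *Rgs17*) under the alternatives, 568 kept their direction and side of the threshold, 15 became called, 12 lost their call, and 15 changed sign, all of the last in genes that were not called. In WT cells 0 members were called higher with PTH, and 1 (*Rgs4*) without a filter on low counts, with at least 10 counts in every library, or in the fit of 12 libraries (0 to 1 with 1 library left out). The 1 member called lower became 2 with library totals, without a filter, or in the fit of 12 libraries (1 to 2 with 1 library left out). In Y428F cells the 0 called higher became 1 without a filter or with at least 10 counts in every library (0 to 1 with 1 library left out), and the 2 called lower became 1 at an adjusted p under 0.01 (1 to 2 with 1 library left out). Between the lines with vehicle, the 2 called lower became 1 with library totals, at an adjusted p under 0.01, or with a log2 fold change beyond 0.3 (1 to 2 with 1 library left out). With PTH, the 2 called higher became 1 at an adjusted p under 0.01 or beyond 0.3 (1 to 2 with 1 library left out). The cause of these changes was not tested, except that the stricter limits and the samples left out act by their construction.

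With library totals the log2 fold change with PTH in WT cells was -0.046 for *Rgs10* and -0.036 for *Rgs19*, and with 1 library left out it ranged from -0.048 to 0.063 and from -0.039 to 0.12. Leaving out 1 library gave ranges in Y428F cells of -0.23 to 0.31 for *Rgs2* and -0.72 to 0.64 for *Rgs16*, and between the lines with vehicle of -0.0025 to 0.058 for *Rgs10* and -0.45 to 4.41 for *Rgs16*. Levels per length of *Rgs3* moved from 3.69 to 8.53 CPM per kb in WT vehicle with the longest transcript. Library totals gave 38% of PTH calls higher in WT cells (744 against 1216 lower) where TMM gave 58.4%, and 38.1% in Y428F cells where TMM gave 53.4%. No scaling moved the median of all genes by over 0.1. Over all genes, the difference in response had 30 genes higher and 43 lower, against 51 and 72 with DESeq2 and 96 and 120 without a filter. With 1 library left out these counts ranged from 6 to 37 higher and from 18 to 57 lower, lowest without Y428F PTH library 3 (6 and 18), followed by 7 and 24 without Y428F vehicle library 2 and 12 and 20 without Y428F vehicle library 1. PTH in Y428F cells had 1022 genes lower, and 616, 676, and 651 without Y428F vehicle library 1 or 2 or Y428F PTH library 1.

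The replicate numbers did not pair the samples: over 18 pairs of same-numbered libraries the mean correlation of deviations was 0.0019 (-0.031 to 0.037). With the number as a block no call of these 7 genes changed, and *Rgs16* had a log2 fold change of -0.041 with PTH in Y428F cells. The WT calls of *Axin1* (adjusted p = 0.071), *Adcy6* (0.0861), and *Mcam* (0.103) were lost under the block, and no other of the 112 calls of list genes was. Over all genes the block gave 936 higher and 707 lower with PTH in WT cells, where 1072 and 765 were called without it. Depth limits *Rgs2*, *Rgs5*, *Rgs16*, and *Rgs17*, each with no library above 10 counts, and the intervals cover the spread of 3 libraries a group.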
